A study of Mus musculus with 2 samples.

Results

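The genes described here are the Fos and Jun family genes Fos, Fosb, Fosl1, Fosl2, Jun, Junb and Jund, together with Atf3 and Batf3, which encode partners of the Jun proteins. They were followed through lists of DNA regions recovered by ChIP-seq with an antibody to Etv4 or to Etv5. A region was counted for a gene when it lay in the gene, as annotated by GENCODE on the mouse genome build mm10, or within 50 kb of it. By this rule the 9 genes, out of 21938 protein-coding genes, held 49 of 13636 Etv4 regions (0.359%) and 32 of 8297 Etv5 regions (0.386%).

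Both libraries came from EpRas cells, derived from the mouse mammary gland line EpH4 by transformation with the oncogenic H-Ras mutant G12V. The cells grew in 4% serum and received 1 ng/ml TGF-β3, a cytokine that drives epithelial-mesenchymal transition, for 1.5 h. Each antibody had 1 library, so the lists could not be compared against a spread between replicates and no test between the antibodies was made. Every group thus carries the Ras oncogene, the serum and the TGF-β3, while untreated cells, parental EpH4 cells and control precipitations were not analysed here. Region lists hold no expression values, so the labelled cell type could not be checked against marker genes.

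Fos and Jun proteins carry a basic leucine zipper, through which they pair, and the resulting AP-1 dimers bind the sequence TGACTCA, which reads TGAGTCA on the other strand. Atf and Creb proteins of the wider bZIP class prefer the related sequence TGACGTCA, the cyclic AMP response element or CRE. Fos, Fosb and Junb are classical immediate early genes, switched on within minutes by growth factors through Ras and ERK. In this response the serum response factor binds a CArG box, an A- and T-rich stretch framed by CC and GG, next to ETS proteins of the ternary complex factor group. Etv4 and Etv5 are ETS proteins of the PEA3 group, which recognise a GGAA core and are known targets of ERK signalling themselves.

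The sequences that the results turn on were taken from the mm10 assembly and are printed from 5′ to 3′ along the gene's own strand. Each distance is that of the pattern from the annotated gene start. Capitals mark an AP-1 pattern (TGACTCA or TGAGTCA), an ETS pattern (CAGGAAGT or CCGGAAGT, or either as read on the other strand), the CRE pattern TGACGTCA or a CArG box. All were searched on both strands, and no ETS pattern contains or overlaps an AP-1 pattern in the stretches shown. A match is a run of letters and not a measured binding event. The first set shows patterns next to the starts of 4 genes, because regions of both lists lay at or beside these starts.

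Fos, 304 bp upstream (chr12:85473550-85473690, plus strand, CArG box): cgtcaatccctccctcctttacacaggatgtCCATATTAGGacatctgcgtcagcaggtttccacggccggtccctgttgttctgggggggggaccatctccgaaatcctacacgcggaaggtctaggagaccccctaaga
Jund, 210 bp upstream (chr8:70698724-70698753, plus strand, CRE): ccccacccccaTGACGTCAacccacaatgc
Fosl1, 353 bp downstream (chr19:5447887-5447913, plus strand, exonic, AP-1): gaggcgcgagTGAGTCAgaaccgcagc
Fosl2, 56 bp downstream (chr5:32135845-32135870, plus strand, exonic, AP-1): ccattgtagTGACTCAtctcgggcag

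The second set comes from Junb, whose surroundings held the longest run of regions, and lists patterns that lay inside regions of both lists, from the gene body outwards (an ETS site 6.25 kb upstream is not shown).

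Junb, 2.09 kb downstream (chr8:84976598-84976648, minus strand, CArG box): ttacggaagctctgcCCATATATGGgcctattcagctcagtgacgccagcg
Junb, 1.07 kb upstream (chr8:84979763-84979813, minus strand, ETS): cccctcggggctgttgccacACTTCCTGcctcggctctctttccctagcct
Junb, 1.45 kb upstream (chr8:84980138-84980188, minus strand, CArG box): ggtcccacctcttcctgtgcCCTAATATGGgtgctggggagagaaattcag
Junb, 2.61 kb upstream (chr8:84981298-84981348, minus strand, AP-1): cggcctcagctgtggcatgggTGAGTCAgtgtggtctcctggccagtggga
Junb, 3.69 kb upstream (chr8:84982378-84982428, minus strand, AP-1): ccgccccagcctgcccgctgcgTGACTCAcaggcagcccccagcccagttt
Junb, 6.71 and 6.63 kb upstream (chr8:84985318-84985448, minus strand, ETS and AP-1): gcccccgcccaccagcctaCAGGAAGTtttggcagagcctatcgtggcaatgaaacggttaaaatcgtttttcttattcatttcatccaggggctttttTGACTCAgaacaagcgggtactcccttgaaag
Junb, 7.04 to 6.94 kb upstream (chr8:84985638-84985768, minus strand, 3 AP-1): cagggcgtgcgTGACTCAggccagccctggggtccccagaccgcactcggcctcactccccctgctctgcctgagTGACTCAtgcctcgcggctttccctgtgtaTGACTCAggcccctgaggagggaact

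The third set shows patterns away from the outermost gene start at Fosb, Fosl1, Jun and Atf3, where AP-1 or ETS sites lay in the regions described for these genes. The Atf3 site lay in the same regions as 2 inner transcript starts of that gene.

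Fosb, 6.95 kb upstream (chr7:19316976-19317026, minus strand, AP-1): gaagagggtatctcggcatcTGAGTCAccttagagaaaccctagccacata
Fosb, 6.73 kb upstream (chr7:19316761-19316811, minus strand, AP-1): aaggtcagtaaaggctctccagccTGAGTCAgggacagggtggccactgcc
Fosl1, 13.98 kb upstream and beyond (chr19:5433517-5433597, plus strand, 2 AP-1): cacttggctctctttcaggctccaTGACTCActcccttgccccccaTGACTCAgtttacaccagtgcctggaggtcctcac
Fosl1, 13.8 kb upstream (chr19:5433717-5433767, plus strand, ETS): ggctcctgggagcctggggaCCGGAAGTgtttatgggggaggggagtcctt
Jun, 50.6 kb downstream (chr4:95001562-95001642, minus strand, 2 AP-1): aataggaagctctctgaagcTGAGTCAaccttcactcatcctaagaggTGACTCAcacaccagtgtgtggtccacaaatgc
Atf3, 35.3 kb downstream (chr1:191182774-191182799, minus strand, AP-1): cgcggaggTGACTCAcactctggcga

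Every one of the 9 genes had at least 1 Etv4 and 1 Etv5 region. Among all protein-coding genes, 53.4% had an Etv4 region by the same rule, 42.7% had an Etv5 region and 36.4% had both. The median number of regions per gene was 6 for Etv4 and 3 for Etv5 over the 9 genes, and 1 and 0 over all protein-coding genes. Etv4 regions ranged from 1 at Fosl2 to 12 at Fosl1, and Etv5 regions from 1 at Fos and Fosl2 to 8 at Junb. Junb was the only one of the 9 with more Etv5 than Etv4 regions.

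Regions near a gene need not belong to it, since the surroundings of the 9 genes differ in how many other genes they hold. No other protein-coding gene lay within 50 kb of Fos, Fosl2 or Jun, whereas 7 lay near Fosb, 9 near Junb and 11 near Fosl1. The member's own start was the nearest protein-coding gene start for 19 of the 49 Etv4 regions and 16 of the 32 Etv5 regions. At Fosl1 this held for 2 of 12 Etv4 regions and at Jun for 5 of 6, so the count of Fosl1 includes mostly regions nearer to other genes. Only outermost gene starts were compared here, so the regions over the inner transcript starts of Atf3 counted as nearest to Fam71a. Within 10 kb of the 9 genes there were 24 Etv4 and 16 Etv5 regions.

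**Figure D1:**
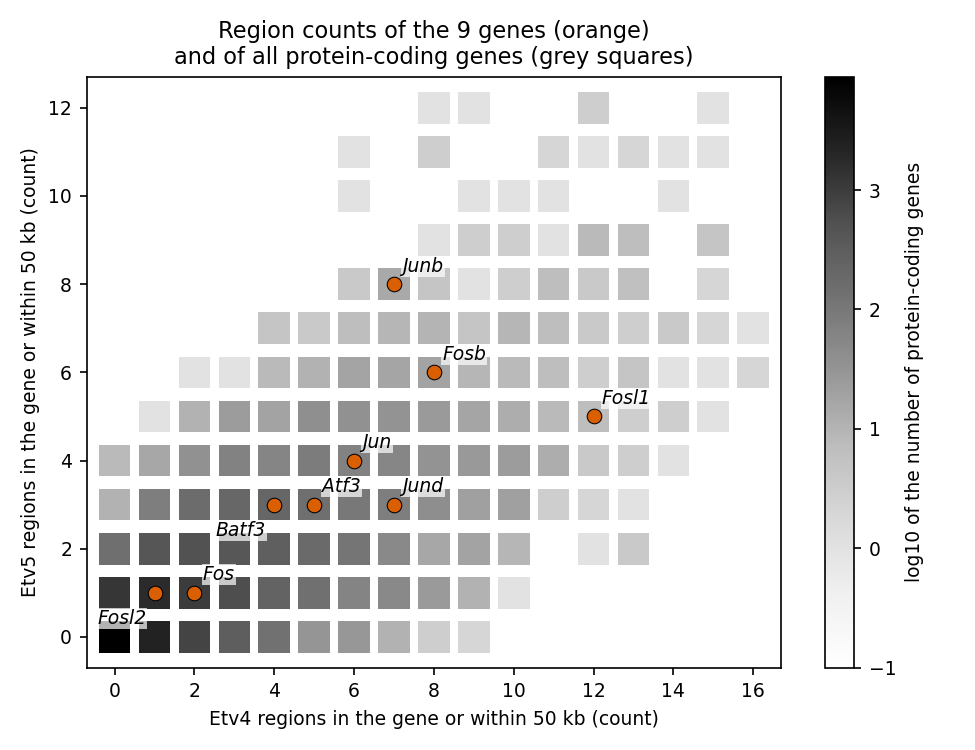
Number of Etv4 regions (x axis) and Etv5 regions (y axis) in each gene or within 50 kb of it. Orange points are the 9 Fos and Jun family genes, grey squares hold all protein-coding genes with a shade for the log10 of their number, and 38 genes lie outside the axes. Fos and Fosl2 sit among the most common counts, and Fosl1 (12 and 5), Junb (7 and 8) and Fosb (8 and 6) sit where squares are pale.

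A region overlapped the gene itself at 7 of the 9 genes in the Etv4 list and at 6 in the Etv5 list, beside 23.0 and 14.7% of all protein-coding genes. Outermost gene starts were covered more often by Etv4 than by Etv5 regions, both at the 9 genes and among all protein-coding genes. The start of 6 genes, Fos, Fosl1, Fosl2, Jun, Junb and Jund, lay inside an Etv4 region, beside 9.91% of all protein-coding genes. The starts of Fos, Junb and Jund lay inside an Etv5 region as well, beside 4.35% of protein-coding genes for the Etv5 list and 2.12% for both lists. At Fosl1 and Fosl2 the Etv5 region began 35 and 34 bp downstream of the annotated start. With the start of any annotated transcript counted, the Etv5 list reached 6 genes, Fos, Fosl1, Fosl2, Junb, Jund and Atf3, and the Etv4 list reached these and Jun, 7 genes. By that count 5.89% of all protein-coding genes had a start inside an Etv5 region and 12.9% inside an Etv4 region.

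**Figure D2:**
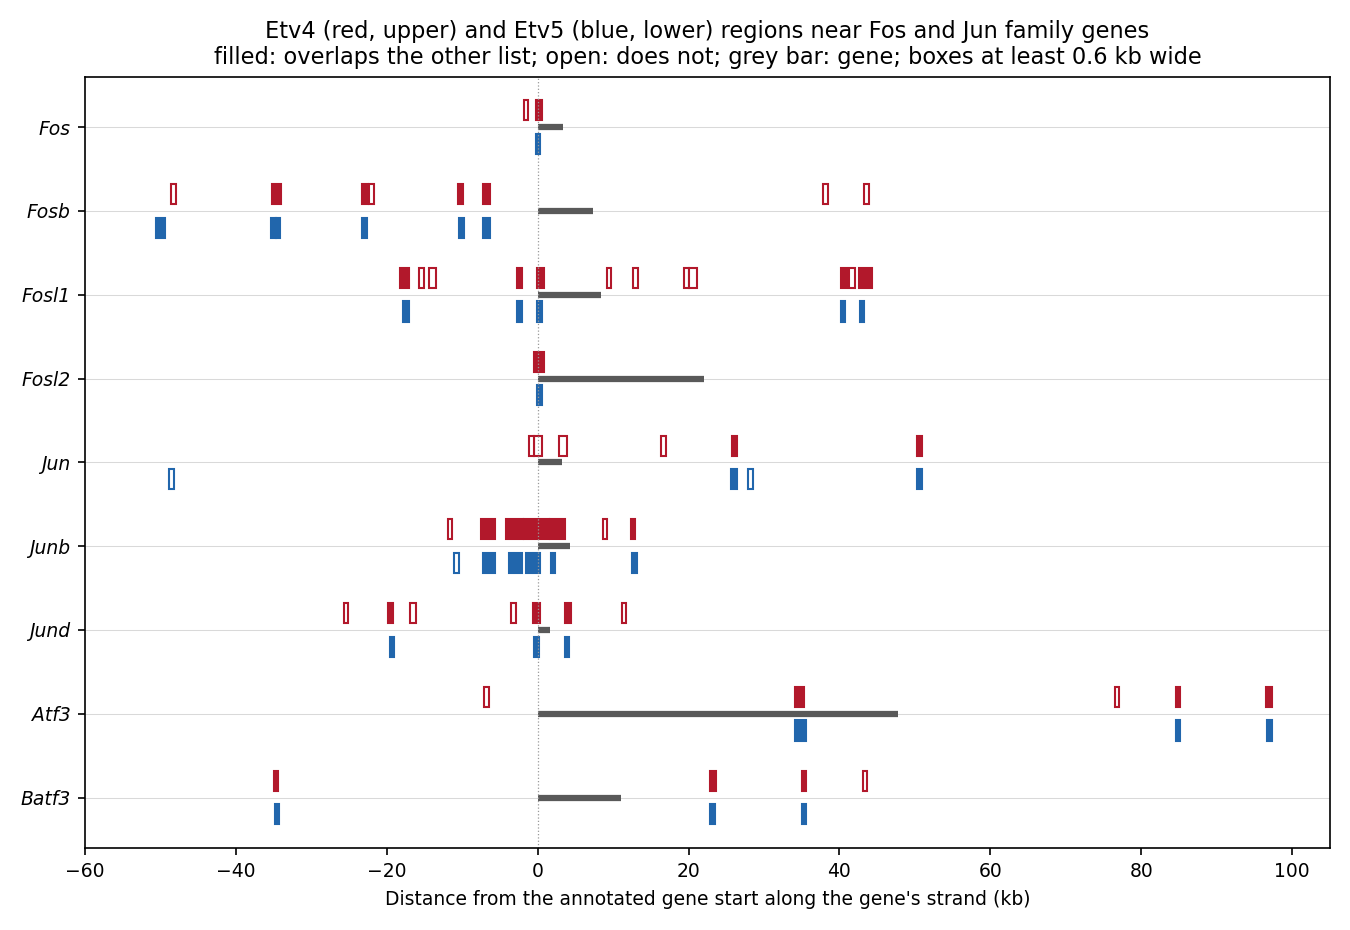
Positions of Etv4 regions (red, upper) and Etv5 regions (blue, lower) around the 9 genes, in kb from the annotated gene start along the gene's strand. Boxes are drawn at least 0.6 kb wide so that short regions can be seen, filled boxes overlap the other list by at least 1 bp, and the grey bar is the gene. Only Jun and Junb have an open Etv5 box.

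Fos, which encodes c-Fos, is at chr12:85473890-85477273 on the plus strand. Of its 2 Etv4 regions, one spanned the gene start at chr12:85473645-85474397 and one lay upstream at chr12:85472207-85472509. It had 1 Etv5 region, at chr12:85473606-85474203, and the start pair shared 559 bp. All 3 regions lay within 2 kb of the start, and the gene had no region further out within 50 kb. Within 100 kb it had 5 Etv4 and 3 Etv5 regions. Etv4 regions covered 15.0% of the gene and Etv5 regions 9.28%. As many as 32.2% of protein-coding genes had 2 or more Etv4 regions, so Fos did not stand out by number. Batf and Jdp2, bZIP genes on the same chromosome beyond the 50 kb window, held 0 and 1 Etv4 regions and no Etv5 region.

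The CArG box of the Fos sequence printed above occupies chr12:85473581-85473590, with its centre 304 bp upstream of the start. It is the sequence at which the serum response factor is known to act. The Etv5 region began 15 bp downstream of it and the Etv4 region 54 bp downstream, so the box itself was in neither list. No ETS, AP-1 or CRE pattern of the spelling used here was found within 1 kb of the start. The letters searched are strict, and the absence of a match says nothing more than that.

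Fosb, a close relative of Fos that is induced with it, is at chr7:19302696-19310051 on the minus strand. The gene was untouched by both lists, although 8 Etv4 and 6 Etv5 regions lay within 50 kb. Only 2.63% of protein-coding genes had as many Etv4 regions and 1.43% as many Etv5 regions. The nearest regions formed a pair 6.81 and 6.77 kb upstream, the Etv4 region at chr7:19316374-19317350 and the Etv5 region at chr7:19316374-19317271. Both began at the same base, and the Etv5 region lay wholly within the Etv4 region. Each contained both AP-1 sites printed above and no ETS pattern. The CArG box of Fosb, centred 262 bp upstream of the start, was 6056 bp away from the nearest region of either list.

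Further pairs upstream of Fosb fell in or near other genes. An Etv4 region at chr7:19320037-19320489 and an Etv5 region at chr7:19319869-19320430 overlapped by 394 bp in an exon of D830036C21Rik. A second pair lay in an intron of the same transcript, with the Etv4 region at chr7:19332603-19333340, the Etv5 region at chr7:19332680-19333277 and an AP-1 site in each. At the start of Ercc1, a DNA repair gene, the Etv4 region at chr7:19344094-19345287 overlapped 2 Etv5 regions. The ETS site CCGGAAGT at chr7:19345098-19345105 lay in the Etv4 region and in the second Etv5 region. It was the only ETS site of the strict spelling CCGGAAGT that both lists shared near any of the 9 genes. The remaining 4 Etv4 regions, near Vasp, in D830036C21Rik and in Cd3eap, overlapped no Etv5 region, while all 6 Etv5 regions overlapped an Etv4 region. The last of these lay near the start of Ppp1r13l, 50.0 kb upstream of Fosb.

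Fosl1, which encodes Fra-1, is at chr19:5447547-5455946 on the plus strand. With 12 Etv4 regions it had more than any other of the 9 genes, a number reached by 0.611% of protein-coding genes, and its 5 Etv5 regions were reached by 2.53%. At the start, the Etv4 region at chr19:5447474-5448356 contained the whole Etv5 region at chr19:5447582-5447989. The AP-1 site TGAGTCA at chr19:5447897-5447903, in an exon of the gene, lay in both. Etv4 regions covered 9.64% of Fosl1 and Etv5 regions 4.86%.

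Upstream of Fosl1, pairs of regions lay at 2.43 and 2.39 kb and at 17.7 and 17.5 kb from the start. The more distant pair, the Etv4 region at chr19:5429287-5430464 and the Etv5 region at chr19:5429636-5430466, held 1 AP-1 site. The region number of this pair was 345 for Etv4 and 2961 for Etv5. Between these pairs, the Etv4 region at chr19:5433126-5434032 held 2 AP-1 sites and the ETS site CCGGAAGT and overlapped no Etv5 region. A short Etv4 region at chr19:5431947-5432285 had no Etv5 partner either and held neither pattern. No other region near the 9 genes held 2 AP-1 sites that were in the Etv4 list alone.

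On the downstream side of Fosl1, all regions were nearest to the starts of other genes, namely Ccdc85b, Fibp, Ctsw, Mus81 and Cfl1. Etv5 regions were found only at Mus81, a DNA repair gene, and at Cfl1, which encodes cofilin, and both overlapped Etv4 regions. The 4 remaining ETS sites counted for Fosl1 lay here, 2 of them in the Etv4 region at the start of Fibp. None of the 5 ETS sites counted for Fosl1 was inside an Etv5 region.

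Fosl2, which encodes Fra-2, is at chr5:32135801-32157842 on the plus strand and had 1 region of each list, the smallest number among the 9 genes. The Etv4 region lay at chr5:32135320-32136609 and contained the Etv5 region at chr5:32135835-32136185. The AP-1 site TGACTCA, 56 bp downstream of the start and in the first exon, was inside both. An ETS site 388 bp downstream, at chr5:32136185-32136192, was inside the Etv4 region, and the Etv5 region ended on its first base (region ends are uncertain by 1 bp). The Etv5 region had region number 7558 of 8297, near the end of its list.

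Jun, which encodes c-Jun, is at chr4:95049034-95052222 on the minus strand. It had 6 Etv4 and 4 Etv5 regions. The share of regions that overlapped the other list was lower at Jun than at the other 8 genes, with 2 of the 6 Etv4 regions and 2 of the 4 Etv5 regions. In the gene or just upstream of it there were 3 Etv4 regions and no Etv5 region. The first spanned the start, at chr4:95051695-95052754 with its midpoint 2 bp from the start, the second lay over the end of the gene, at chr4:95048306-95049392, and the third lay 0.844 kb upstream, at chr4:95052913-95053220, in an exon of the antisense transcript Junos. Etv4 regions covered 27.8% of Jun and Etv5 regions covered 0%.

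The Etv5 region nearest to the Jun start had its midpoint 26.1 kb downstream, at chr4:95025772-95026538, and contained the Etv4 region at chr4:95025991-95026299. A second pair lay 50.6 kb downstream, where the Etv4 region at chr4:95001282-95001884 contained the Etv5 region at chr4:95001473-95001785. Both AP-1 sites of the Jun sequence printed above were inside that pair. The Etv5 regions without an Etv4 partner, at chr4:95023703-95024270 and at chr4:95100493-95100984, each held 1 AP-1 site, and the second also held an ETS site. The Etv4 region at chr4:95035349-95035795, 16.6 kb downstream of the start, had no Etv5 partner and held the AP-1 site TGAGTCA at chr4:95035690-95035696. The 4 Etv5 regions lay in introns of the non-coding transcripts Gm12694 and Junos. An ETS site 591 bp upstream of the start, at chr4:95052809-95052816, fell between Etv4 regions, 54 bp from the nearer one.

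Junb, an immediate early gene that encodes JunB, is at chr8:84974484-84978718 on the minus strand. The longest regions near the 9 genes were found here, in both lists. Across chr8:84975162-84982890 the Etv4 list held 3 regions of 1891, 3288 and 2257 bp with gaps of 175 and 118 bp between them, and another of 1832 bp followed at chr8:84984350-84986181. The region of 3288 bp, which spanned the gene start, was the 38th longest of the Etv4 list. Etv4 regions covered 79.9% of the gene, a share that 0.383% of protein-coding genes reached, and Etv5 regions covered 16.0%, which 0.497% reached.

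The Etv5 list divided the same stretch into 6 shorter regions, each inside or nearly inside an Etv4 region. Their midpoints lay 2.06 kb downstream of the Junb start and 0.09, 1.20, 2.51, 3.54 and 6.44 kb upstream. The last, at chr8:84984322-84985998, measured 1677 bp and was the 32nd longest of the Etv5 list. Region numbers were low in both lists, from 297 to 733 for the 4 long Etv4 regions, and 270, 406, 542 and 916 for 4 of the Etv5 regions. The 2 other Etv5 regions had numbers 2176 and 7486. Beyond this stretch, 3 Etv4 and 2 Etv5 regions lay near Rnaseh2a, Prdx2 and Hook2, and 1 pair of them overlapped.

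All 6 AP-1 sites and all 3 ETS sites counted for Junb were inside regions of both lists. The AP-1 sites lay 2.61, 3.69, 6.63, 6.94, 6.97 and 7.04 kb upstream, so that 4 of them fell within the long Etv4 and Etv5 regions 6.55 and 6.44 kb upstream. The ETS sites, all CAGGAAGT, lay 1.07, 6.25 and 6.71 kb upstream. CArG boxes inside both lists lay 1.45 kb upstream and 2.09 kb downstream of the start, the latter between the transcripts annotated at chr8:84976910-84978718 and at chr8:84974484-84976542. No other of the 9 genes had a CArG box inside an Etv5 region.

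Jund, the most steadily expressed Jun gene in many cell types, is at chr8:70698949-70700616 on the plus strand. It had 7 Etv4 and 3 Etv5 regions, and all 3 Etv5 regions overlapped an Etv4 region. Over the start, the Etv4 region at chr8:70698384-70699265 contained the Etv5 region at chr8:70698453-70699133. The CRE TGACGTCA, centred 210 bp upstream of the start, lay in both and was the only CRE inside any region of the 9 genes. Etv4 regions covered 19.0% of the gene and Etv5 regions 11.1%. RefSeq places the Jund start 1210 bp upstream of the GENCODE start, and that position was in neither list.

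Outwards from Jund, pairs with an AP-1 site lay 3.96 and 3.91 kb downstream, near the start of Iqcn, and 19.5 and 19.3 kb upstream. The other 4 Etv4 regions had no Etv5 partner. They lay 3.23 kb upstream, 16.5 kb upstream with an AP-1 site, near the start of Lsm4 and in an exon of Iqcn. No ETS pattern was found inside any region counted for Jund.

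**Figure D3:**
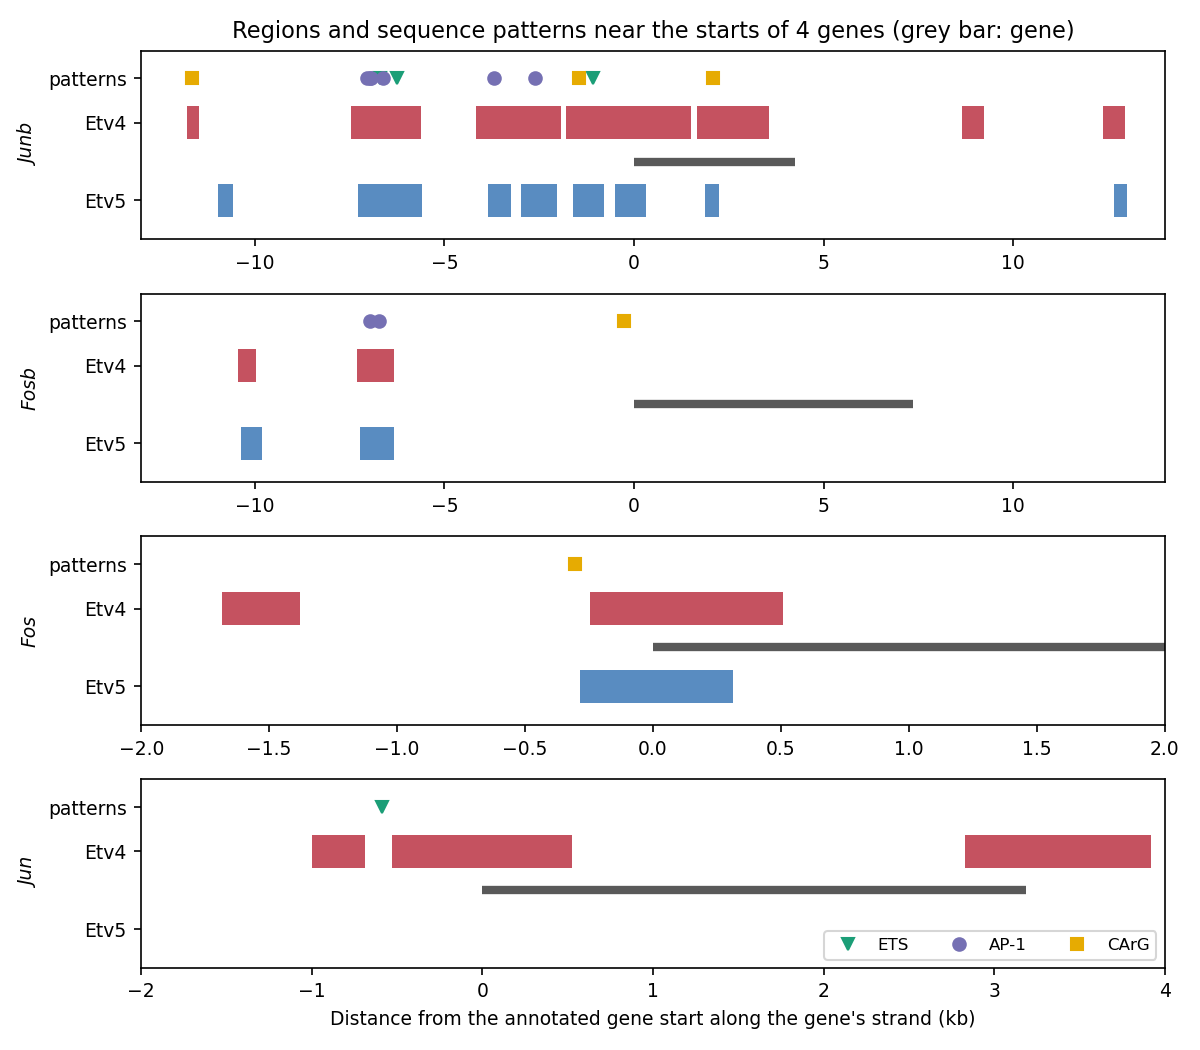
Regions of both lists (red Etv4, blue Etv5, to scale) around the starts of Junb, Fosb, Fos and Jun, in kb from the annotated gene start along the gene's strand. Triangles, circles and squares mark ETS, AP-1 and CArG patterns that lie inside a region or within 1 kb of the start, and the grey bar is the gene. Regions of both lists run through the Junb panel, the Fosb regions in this range stay upstream of the gene, the CArG box of Fos lies just outside both regions, and the Jun panel has no Etv5 region.

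Atf3, a stress-inducible bZIP gene whose product pairs with Jun proteins, is at chr1:191170296-191218039 on the minus strand. It had 5 Etv4 and 3 Etv5 regions. The outermost GENCODE start, at 191218039, was in no region, whereas the 2 inner transcript starts, at 191183340 and 191183108, were in regions of both lists. The Etv4 region there lay at chr1:191182768-191183873 and the Etv5 region lay at chr1:191182499-191183871, with 1104 bp in common. The Etv5 region was the 65th longest of its list, and it was longer than its Etv4 partner. The AP-1 site at chr1:191182785-191182791, in an intron, lay in both. Another Etv4 region, 6.75 kb upstream of the outermost start at chr1:191224584-191225003, lay in an exon of D730003I15Rik.

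Batf3, which encodes a Jun partner known for its role in dendritic cell development, is at chr1:191097847-191108945 on the plus strand. It had 4 Etv4 and 3 Etv5 regions, none of which touched the gene. Of these, 3 Etv4 and 2 Etv5 regions lay between Batf3 and Atf3 and were counted for both genes. The nearest pair was 23.2 kb downstream of the Batf3 start, with the Etv4 region at chr1:191120649-191121451 and the Etv5 region at chr1:191120665-191121404. This pair had the lowest region numbers near the 9 genes, 62 for Etv4 and 122 for Etv5. It contained neither an ETS nor an AP-1 pattern. It also had the largest share of repeated sequence, with 24.0% of its 36-base sequences occurring more than once in the assembly for Etv4 and 26.1% for Etv5. The part of repeats in its region numbers was not tested. The pair upstream of Batf3 lay at the start of Nsl1, a gene for a kinetochore protein.

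Between Batf3 and Atf3, the Etv4 region at chr1:191132840-191133430 contained the Etv5 region at chr1:191133018-191133327. Its ETS site CAGGAAGT at chr1:191132981-191132988 was inside the Etv4 region alone. The Etv4 region at chr1:191141039-191141416 held another ETS site and had no Etv5 partner. Neither stretch held an AP-1 pattern.

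Overlap of the lists was then compared between the regions of the 9 genes and all regions. Of the 32 Etv5 regions near the 9 genes, 29 overlapped an Etv4 region (90.6%, exact 95% binomial interval 75.0 to 98.0%), beside 63.2% of the whole Etv5 list (interval 62.1 to 64.2%). Of the 49 Etv4 regions, 25 overlapped an Etv5 region (51.0%, interval 36.3 to 65.6%), beside 37.8% of the whole list (interval 37.0 to 38.6%). The interval of the Etv4 share included the share of its list, and that of the Etv5 share lay above its list. When 50% of both regions had to be shared, the Etv5 share near the 9 genes was 46.9% and that of the whole Etv5 list 48.4%, so the higher share near the 9 genes was not seen by that rule. The Etv4 shares were then 30.6% near the 9 genes and 29.5% in the whole list. An Etv5 region less than 50% as long as the Etv4 region around it fails this rule even when it lies wholly inside. The Etv5 region of 809 bp within the Etv4 region of 3288 bp at the Junb start is such a case. The part of region length in these shares was not tested. With both lists reduced to their first 50% by number, the Etv5 shares were 68.4 and 65.6%. With the Etv4 list shortened to as many regions as the Etv5 list, they were 75.0% (interval 56.6 to 88.5%) and 51.6%. The intervals cover counting error only and treat regions as independent, although many share a locus. The Etv5 regions without a partner were 2 at Jun and 1 near Hook2, 10.8 kb upstream of Junb.

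The share of Etv4 regions that overlapped was next split by the region number, whose meaning the file does not state. The first 50% of the Etv4 list by number had a median length of 759 bp and the last 50% one of 433 bp. Of the 29 Etv4 regions in the first 50% of the list by number, 20 overlapped an Etv5 region, and of the 20 in the last 50%, 5 did. The whole Etv4 list was split in the same direction, with 54.7% overlapping in its first and 20.8% in its last 50%. Etv5 regions of the 9 genes overlapped in 17 of 19 cases in the first 50% and in 12 of 13 in the last 50%, beside 80.1 and 46.2% of the whole Etv5 list. Etv4 regions of the 9 genes had their median at 40.7% of the list by number and Etv5 regions at 36.8%.

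**Figure D4:**
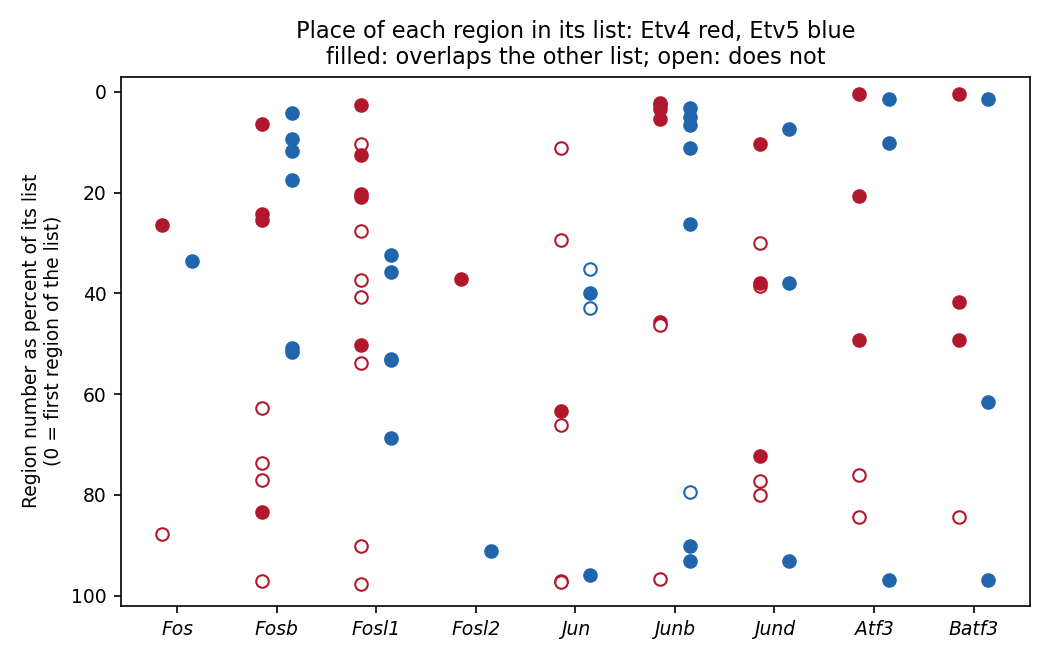
Place of each region in its list (y axis, region number as a percentage of the number of regions, with 0% at the top) for the 9 genes. Red points are Etv4 and blue points Etv5 regions, filled where the region overlaps the other list. Most open red points lie in the lower part of the plot, and the points nearest the top belong to the pair shared by Atf3 and Batf3.

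The midpoints of 33 of the 49 Etv4 regions (67.3%, exact interval 52.5 to 80.1%) lay within 2 kb of the start of some annotated transcript, beside 36.4% of the whole list. For Etv5 the number was 20 of 32 (62.5%, interval 43.7 to 78.9%), beside 33.0%. Other protein-coding genes lay within 50 kb of 6 of the 9 genes, and the part of this spacing in the shares was not tested. Only 8 Etv4 and 6 Etv5 regions had their midpoints within 2 kb of the outermost start of one of the 9 genes themselves. Regions at the inner transcript starts of Atf3 and Junb were not among them. Of the 16 Etv4 and 12 Etv5 regions with midpoints beyond 2 kb of every annotated transcript start, 2 Etv4 regions and 1 Etv5 region were exonic, 3 and 4 intronic, and 11 and 7 intergenic. The median GC content was 57.6% for Etv4 and 58.1% for Etv5 regions of the 9 genes, beside 49.6 and 48.8% for the lists, and the median length was 614 and 571.5 bp, beside 589 and 532 bp.

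The ETS and AP-1 patterns were counted in 500 bp around each midpoint, which can reach past a short region. An ETS pattern was present in 8 of 49 Etv4 regions (16.3%, exact interval 7.32 to 29.7%), beside 10.2% of the whole list. It was present in 6 of 32 Etv5 regions (18.8%, interval 7.21 to 36.4%), beside 7.95%. Both intervals included the share of the list, so no difference was detectable with these numbers of regions. In the central 200 bp the shares were 6.12 and 6.25%, beside 5.03 and 3.5% of the lists.

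An AP-1 pattern was present in 14 of 49 Etv4 regions (28.6%, exact interval 16.6 to 43.3%), beside 37.4% of the list, and in 14 of 32 Etv5 regions (43.8%, interval 26.4 to 62.3%), beside 35.8%. The distance to a transcript start moved with these shares. Within 2 kb, the pattern was found in 7 of 33 Etv4 regions and in 6 of 20 Etv5 regions. Beyond 2 kb it was found in 7 of 16 and in 8 of 12. In the whole lists the shares were 19.7 and 20.9% within 2 kb and 47.6 and 43.1% beyond it. In the central 200 bp the pattern was found in 16.3% of Etv4 and 18.8% of Etv5 regions of the 9 genes, beside 24.0 and 20.6% of the lists. The RUNX pattern (TGTGGTT or TGTGGTC), searched as a further pattern, occurred in 11 of 49 Etv4 regions (22.4%) and 9 of 32 Etv5 regions (28.1%), beside 24.7 and 23.9% of the lists.

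**Figure D5:**
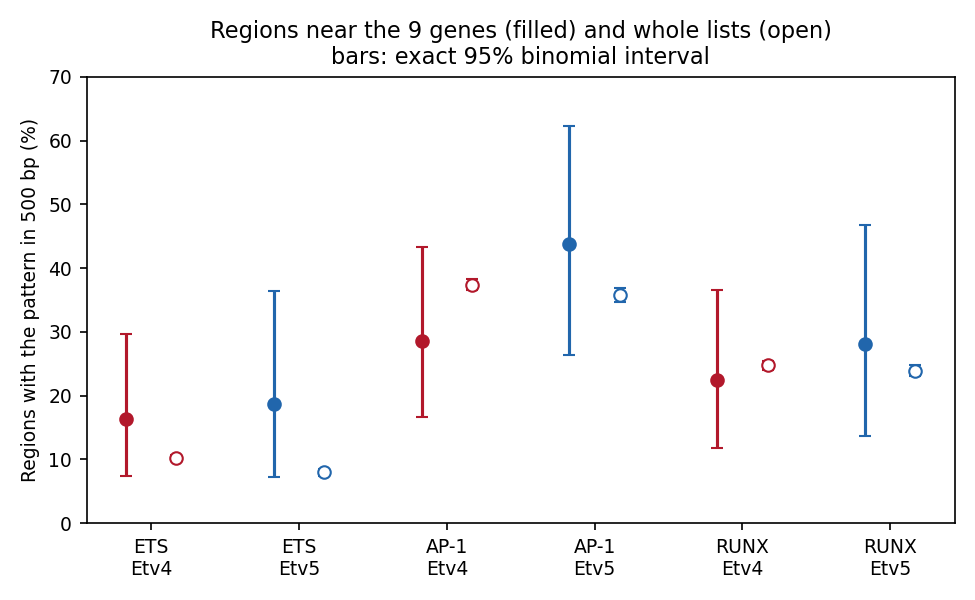
Share of regions with an ETS, AP-1 or RUNX pattern in 500 bp around the midpoint (y axis, %), for regions near the 9 genes (filled points) and for the whole lists (open points). Bars are exact 95% binomial intervals. The interval of every filled point includes the share of its list, for example 16.6 to 43.3% beside 37.4% for AP-1 in Etv4 regions.

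Counted as positions inside the whole regions, 26 AP-1 sites, 13 ETS sites, 5 CArG boxes and 1 CRE lay near the 9 genes. Of the AP-1 sites, 18 were inside regions of both lists, 6 in the Etv4 list alone and 2 in the Etv5 list alone. The part in both lists was 69.2% (exact interval 48.2 to 85.7%), beside 38.3% of the 7888 AP-1 sites in all regions. Of the ETS sites, 4 were inside regions of both lists, 8 in the Etv4 list alone and 1 in the Etv5 list alone. Here the part in both was 30.8% (interval 9.09 to 61.4%), beside 25.4% of the 1966 ETS sites in all regions. Sites in 1 region are not independent of each other. Fosb and Junb each had 6 AP-1 sites, Jun 5, Fosl1 4, Jund 3, and Fosl2 and Atf3 1 each. Fos and Batf3 had none. ETS sites were counted at Fosl1 (5), Junb (3), Atf3 (2, in regions also counted for Batf3), and Fosb, Fosl2 and Jun (1 each). Of the ETS sites shared by both lists, 3 were at Junb and 1 at Ercc1 near Fosb.

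RefSeq promoters, which run from 250 bases before to 50 bases after a gene start, were available for 8 of the 9 genes on assembly GRCm38.p6. None of the 8 held an ETS, AP-1, CRE or CArG pattern, beside 7.07, 5.2, 1.79 and 1.63% of all 32851 promoters in that order. At Atf3 the RefSeq start lay 34706 bp inside the GENCODE gene, next to its inner transcript starts, and was in regions of both lists. At Fosl2 it lay 671 bp downstream of the GENCODE start, in the Etv4 region alone.

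Other bZIP genes, whose products dimerise with Fos or Jun or bind related DNA, were read by the same rule. Of 28 such genes, 22 (78.6%) had an Etv4 region and 15 (53.6%) an Etv5 region, and 6 had none of either list. The shares among all protein-coding genes were 53.4 and 42.7%. Starts of the 28 genes lay inside an Etv4 region in 4 cases and an Etv5 region in 3, beside 9.91 and 4.35% of all protein-coding genes. The most regions were found at Bach2, a repressor that pairs with small Maf proteins, with 12 Etv4 and 11 Etv5 regions in and around a gene of 347 kb. Atf4, the stress response factor, and Atf7 followed, with 6 and 5 and with 7 and 4. Atf4, like Junb, was a short gene largely under Etv4 regions, which covered 73.7% of it.

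The regulators of AP-1 listed were serum response factor, ternary complex factors, kinases of the MAPK cascades and the mRNA decay factors of the Zfp36 family. Of these 20 genes, 12 (60%) had an Etv4 region and 9 (45%) an Etv5 region, beside 53.4 and 42.7% of all protein-coding genes, and 7 had none. The starts of 7 of the 20 lay inside an Etv4 region and that of 1 inside an Etv5 region, beside 9.91 and 4.35% of all protein-coding genes. Elk3, a ternary complex factor, had 7 Etv4 and 3 Etv5 regions, and Zfp36, whose product destabilises many immediate early mRNAs, had 9 and 1. Map2k2, which encodes the ERK kinase MEK2, and Zfp36l2 each had 6 and 3.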

How the data were processed

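ChIP-seq libraries were made from EpRas cells with a rabbit polyclonal antibody to Etv4 and a mouse monoclonal antibody to Etv5, with 15 cycles of PCR. The reads, of 36 bp after trimming, were mapped to mm10 (Bowtie per the labels), and regions called in each library alone by CisGenome without a control library (window 300 bp, p threshold 0.1), so uneven mappability, copy number or chromatin openness is not removed. The deposited lists are BED files with 6 columns. The deposited score is 1000 throughout, and the deposited region number, the name column, has no stated criterion. No read counts, heights or p-values were deposited in them, so the depth behind a region is unknown, and a longer list cannot be told apart from a deeper library.

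Genes came from GENCODE M21 and sequence from GRCm38. Positions are printed counting from 1. Regions overlapped when they shared at least 1 bp. Patterns were searched on both strands, and sites found on both strands at the same bases were counted once. A gene start was the outermost 5′ end of the gene. The named genes were the 9 members with their regions within 50 kb, neighbours whose start was nearer or that held a region, and of each of the 2 lists of other genes the 3 with most regions and ties. The members, gene lists, patterns and alternatives were chosen with earlier results of these data known. Groups followed the antibody in the labels, and no test was made with 1 library per antibody. The functions for overlap and pattern search were tested on simulated data. The tools were scipy 1.17.1, pandas 2.3.3, numpy 2.4.6, matplotlib 3.10.9 and numba 0.67.0, run in Python 3.11.15.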

Additional observations from a re-analysis of the deposited data

How the results depend on the processing

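No paired analysis was possible because both antibodies had 1 library and no result came from a test. Of 86 planned recomputations 58 stayed within the interval of the value, or within 1.5 times a count, and 28 did not. The count of 49 Etv4 regions became 24 within 10 kb, 74 within 100 kb, 29 with the longer 50% or the first 50% of the list, and 19 where the member's start was the nearest. The count of 32 Etv5 regions became 16, 19, 19 and 16 within 10 kb, with the longer 50%, with the first 50% and by the nearest start. Overlap of Etv4 regions (51.0%) fell to 30.6% when 50% of both regions had to be shared. Overlap of Etv5 regions (90.6%) became 100% within 10 kb, 73.7% with both lists cut to the longer 50%, 68.4% with both cut to the first 50%, 46.9% when 50% of both regions had to be shared and 68.8% with midpoints within 250 bp. The whole Etv5 list had 65.1, 65.6, 48.4 and 54.3% under the last 4 of these, each within the interval of the share near the 9 genes. The share with an ETS pattern (16.3 and 18.8%) became 6.12 and 6.25% in 200 bp, 6.12 and 3.13% for CCGGAAGT alone, and 75.5 and 87.5% with a loose pattern. The lists had 3.46 and 2.17% for CCGGAAGT alone and 81.5 and 79.1% with the loose pattern, so the Etv4 share near the 9 genes lay above its list for the main pattern and below it for the loose one. The share with an AP-1 pattern (28.6 and 43.8%) became 16.3 and 18.8% in 200 bp, and 43.8 and 66.7% beyond 2 kb of a transcript start. The Etv5 list covered 6 gene starts in place of 3 when any transcript counted and 5 when a region within 500 bp counted, which held for 6.98% of all protein-coding genes. The median share of a gene covered by Etv5 regions (2.88%) became 0% with the longer 50%. Over all protein-coding genes this median was 0% with the full list. An alternative chosen after seeing the data, the Etv4 list shortened by region number to the length of the Etv5 list, left 31 Etv4 regions, of which 67.7% overlapped, while the overlap of Etv5 regions fell to 75.0%. Over all regions the Etv4 share by this rule was 50.1% and the Etv5 share 51.6%. The former lay within the interval near the 9 genes (48.6 to 83.3%) and the latter below its interval (56.6 to 88.5%). Within 10 kb, 1 gene had no Etv4 and 2 had no Etv5 region. Fosl2 had no Etv5 region with the longer 50% or with the first 50%, and Atf3 had none by the nearest start. The nearest-start rule used outermost gene starts only, although an Etv5 region covered 2 inner transcript starts of Atf3. Among all protein-coding genes, 33.2% had an Etv4 and 23.0% an Etv5 region within 10 kb, and 25.5, 26.05 and 19.2% had an Etv5 region by the other 3 rules. The causes of these shifts were not tested. With no read counts, region height and depth could not limit or rank any value.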
